A study of Mus musculus with 8 samples.

Results

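The antioxidant enzymes and NRF2 targets were followed as 32 listed genes out of 15274 genes with a row in the deposited count table, and all 32 were found and passed the filter on low counts. They were chosen by name from pathway knowledge, and for each gene the transcript row with the highest total count was used. Messenger RNA had been sequenced from mouse ventral midbrain, the region that holds the dopaminergic neurons, in 4 Ercc1 delta/+ samples and 4 wild type samples. Ercc1 delta/+ mice carry 1 mutant and 1 intact allele of a DNA repair endonuclease gene. Both groups shared a mixed FVB:C57BL/6J background, a regular diet and 1 sequencing lane. The labels give neither age nor sex. Nothing in them states that the 4 samples of a group came from 4 different mice, so the p-values speak of sample-to-sample spread, some of which may be technical.

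Peroxiredoxins, glutathione peroxidases and catalase destroy peroxides, and superoxide dismutases turn superoxide into hydrogen peroxide. The peroxidases are kept working by 2 electron relays fed by NADPH, one through thioredoxin and one through glutathione. The transcription factor NRF2, encoded by Nfe2l2, is held back by Keap1 until oxidants or electrophiles modify it, and then binds antioxidant response elements beside many of these genes. In brain the glutathione and NRF2 branches are known to be most active in astrocytes, ferritin is abundant in oligodendrocytes and microglia, and dopaminergic neurons generate oxidants while handling dopamine.

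Promoter windows of 7 genes are shown because the response element is the site through which NRF2 acts on such genes. RefSeq promoter windows on the GRCm38.p6 build, running from 250 bases before to 50 bases after a transcript start, were matched by symbol for 27 of the 32 genes. Gclc, Gsr, Gsta4, Hmox1 and Prdx6 had no window, so the shares below leave them out. The element core was searched on both strands as TGACNNNGC and as TGAGNNNGC, which cannot match at the same place, and a match is shown in capitals (on the minus strand it reads as the reverse complement). The first 4 windows hold matches, and the last 3 belong to genes with some of the smallest p-values and hold none. The windows were picked with results known, so this split is not a comparison of lower genes with others. Prdx1, among the first 4, had the smallest p of the 32 in the edgeR quasi-likelihood test (0.000438). Sod1, which was also lower, held a match but is not printed.
Prdx1 (chr4:116685349-116685648, plus strand): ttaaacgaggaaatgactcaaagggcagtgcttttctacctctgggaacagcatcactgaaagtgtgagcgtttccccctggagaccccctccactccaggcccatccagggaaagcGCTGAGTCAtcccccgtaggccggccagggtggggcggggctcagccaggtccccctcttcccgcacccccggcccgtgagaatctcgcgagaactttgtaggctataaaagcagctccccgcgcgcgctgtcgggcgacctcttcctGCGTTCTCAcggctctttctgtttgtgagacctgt
Txnrd1 (chr10:82858956-82859255, plus strand): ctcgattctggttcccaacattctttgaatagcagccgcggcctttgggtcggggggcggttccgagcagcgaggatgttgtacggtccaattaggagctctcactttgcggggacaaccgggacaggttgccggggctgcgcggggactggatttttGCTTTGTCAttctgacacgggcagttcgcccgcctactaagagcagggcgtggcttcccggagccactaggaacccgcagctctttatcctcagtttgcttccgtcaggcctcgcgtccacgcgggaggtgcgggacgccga
Srxn1 (chr2:152105274-152105573, plus strand): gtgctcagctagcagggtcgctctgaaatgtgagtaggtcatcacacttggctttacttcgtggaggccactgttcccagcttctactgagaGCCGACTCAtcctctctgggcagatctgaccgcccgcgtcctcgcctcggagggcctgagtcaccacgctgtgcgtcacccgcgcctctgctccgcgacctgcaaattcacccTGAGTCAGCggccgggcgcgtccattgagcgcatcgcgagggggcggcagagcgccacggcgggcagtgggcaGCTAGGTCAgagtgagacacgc
Gclm (chr3:122245307-122245606, plus strand): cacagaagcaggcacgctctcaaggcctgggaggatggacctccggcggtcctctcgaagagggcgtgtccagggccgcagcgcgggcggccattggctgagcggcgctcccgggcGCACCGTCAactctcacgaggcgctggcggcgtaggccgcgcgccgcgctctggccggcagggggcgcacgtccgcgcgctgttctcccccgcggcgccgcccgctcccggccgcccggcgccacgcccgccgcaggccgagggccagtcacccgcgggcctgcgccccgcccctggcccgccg
Prdx4 (chrX:155338411-155338710, minus strand): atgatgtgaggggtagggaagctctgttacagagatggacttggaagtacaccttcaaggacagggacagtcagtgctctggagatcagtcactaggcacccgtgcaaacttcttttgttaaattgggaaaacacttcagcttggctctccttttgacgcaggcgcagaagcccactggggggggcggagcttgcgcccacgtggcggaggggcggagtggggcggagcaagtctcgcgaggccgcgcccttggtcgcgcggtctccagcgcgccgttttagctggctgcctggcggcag
Txn1 (chr4:57956362-57956661, minus strand): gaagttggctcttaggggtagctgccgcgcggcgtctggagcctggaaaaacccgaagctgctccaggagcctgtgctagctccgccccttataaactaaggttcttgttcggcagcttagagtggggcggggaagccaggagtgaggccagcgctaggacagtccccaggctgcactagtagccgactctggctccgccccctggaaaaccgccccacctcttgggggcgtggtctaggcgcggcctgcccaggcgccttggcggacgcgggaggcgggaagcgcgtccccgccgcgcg
Gpx1 (chr9:108338830-108339129, plus strand): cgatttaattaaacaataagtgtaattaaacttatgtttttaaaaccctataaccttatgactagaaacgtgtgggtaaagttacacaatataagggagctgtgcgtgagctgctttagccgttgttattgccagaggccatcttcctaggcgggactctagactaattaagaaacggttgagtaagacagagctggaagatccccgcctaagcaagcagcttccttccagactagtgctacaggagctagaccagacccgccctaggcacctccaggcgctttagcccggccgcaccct

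Positions are given from the start site for the upstream end of a match on either strand. In Prdx1 the match TGACTCAGC, on the minus strand, lay at position -133, and it also holds the letters of the AP-1 motif TGANTCA. Srxn1, which encodes the sulfiredoxin that repairs over-oxidised peroxiredoxins, had 3 matches, at positions -158, -45 and 29. The match at -45, TGAGTCAGC, holds the AP-1 letters too. Txnrd1, printed for 1 of its 3 windows, held TGACAAAGC at -92, and Gclm held TGACGGTGC at -134. A core of either form was found in 9 of the 27 genes (33.3%), against 35.4% of the 11935 genes whose windows were searched. TGACNNNGC alone was found in 7 of the 27 (25.9%), against 16.5% of all genes, and TGAGNNNGC in 4 (14.8%), against 23.0%. These matches describe letters in a short window only, and known elements of several of these genes lie farther away.

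Library totals ran from 18268373 to 31197522 counts, and the members' rows held from 100 to 42021 counts in a library. Ercc1 itself stood at 11.5 ± 1.17 CPM (read counts scaled to TMM-normalised library size, mean ± SD, n = 4) in Ercc1 delta/+ and 14.6 ± 0.724 CPM in wild type (n = 4), with no overlap and an adjusted p of 0.114 in edgeR. The 4 shallowest libraries included 3 of the mutants (1, 2 and 4) but just wild type replicate 2, and the 4 deepest just 1 mutant, so that each depth class holds a lone library of 1 genotype. In a fit with depth class as a term, the log2 fold changes of Prdx1, Prdx4, Txn1 and Gpx1 were -0.49, -0.45, -0.40 and -0.48. Others moved more in that fit. Hmox1 went from 0.29 to 0.04 and Nfe2l2 from 0.16 to 0.05, and Keap1, Gclc, Gclm, Ftl1, Srxn1, Txnrd1 and Sod2 changed sign. Of 8 marker sets for neurons, dopaminergic neurons, astrocytes, oligodendrocytes, microglia, endothelium, red blood cells and choroid plexus, 6 had overlapping summed levels and medians between -0.11 and 0.22 on the log2 scale. These 6 sets held 8 markers each and were not all balanced in sign. Negative markers numbered 2 for neurons, 7 for dopaminergic neurons, 6 each for astrocytes and oligodendrocytes, 4 for microglia and 3 for endothelium. The 8 dopaminergic markers that bear on the labelled region, among them Th, Slc6a3 and Ddc, all passed the filter and summed to 292 to 538 CPM in Ercc1 delta/+ and 387 to 588 CPM in wild type. The choroid plexus set, with all 8 genes positive, summed to 75.1 to 1140 CPM in Ercc1 delta/+ and 61.8 to 155 CPM in wild type. The red blood cell set, with 3 of 8 genes having a row of their own here, summed to 151 to 235 CPM in Ercc1 delta/+ and 237 to 320 CPM in wild type, so these groups did not overlap. The part of red blood cell and choroid plexus RNA in the results was not tested. In such bulk tissue fewer cells of a type and less RNA per cell cannot be told apart.

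1 mutant library stood apart from the other 3 for the antioxidant genes. Measured as the median deviation of the 32 genes from the mean of the 8 libraries, Ercc1 delta/+ replicates 1 to 4 lay at -0.08, 0.08, -0.11 and -0.09 on the log2 scale, and wild type replicates 1 to 4 at 0.06, 0.13, 0.08 and -0.02. Ercc1 delta/+ replicate 2 thus lay among the wild type libraries, and wild type replicate 4 was the lowest of its group. In replicate 2, 9 of the 32 genes were below their mean, while Ercc1 delta/+ replicates 1, 3 and 4 had 23, 28 and 24, and wild type replicates 1 to 4 had 9, 4, 9 and 18. The median deviation of the 11 peroxiredoxin and thioredoxin genes was -0.23, -0.03, -0.11 and -0.10 in Ercc1 delta/+ and 0.16, 0.16, 0.11 and 0.02 in wild type, which do not overlap. For the 11 glutathione genes the values were -0.26, 0.09, -0.14 and -0.11 in Ercc1 delta/+ and 0.08, 0.08, 0.10 and -0.02 in wild type, and these overlap through replicate 2. The median over all genes lay between -0.0 and 0.01 in every library. The separation of the peroxiredoxin and thioredoxin genes was narrow, at -0.03 against 0.02. Their median length was 1500 bases, and all genes over 1000 and up to 2000 bases had a median log2 fold change of -0.10. The part of length in this separation was not tested.

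**Figure D1:**
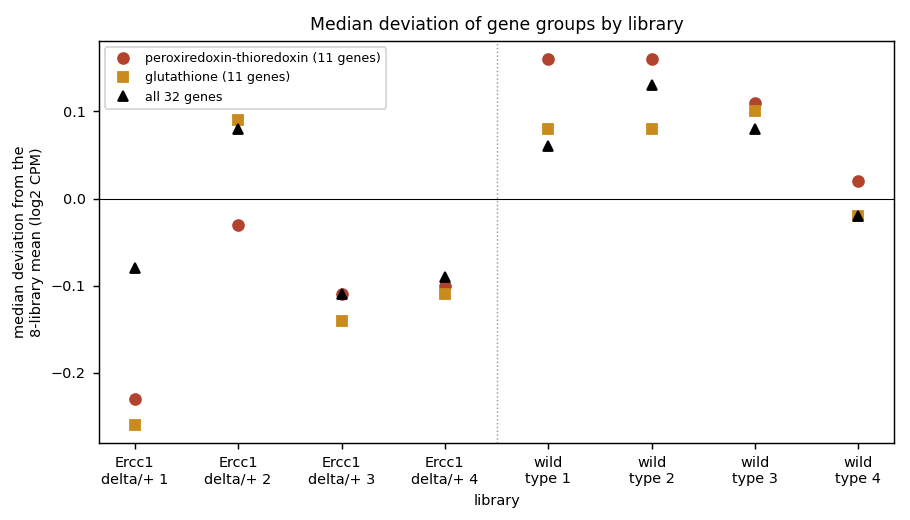
Median deviation from the 8-library mean in log2 CPM (vertical axis) for each library (horizontal axis), for all 32 genes (triangles), the 11 peroxiredoxin and thioredoxin genes (circles) and the 11 glutathione genes (squares). Ercc1 delta/+ replicate 2 lies at 0.08 for all 32 genes, inside the range of the wild type libraries.

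Over the whole set, 24 genes had a negative and 8 a positive log2 fold change of Ercc1 delta/+ over wild type, with a median of -0.10, while 50.5% of all 14989 genes tested were negative, 49.5% positive, and their median was -0.003. None of the 32 passed an adjusted p of 0.05 in the edgeR quasi-likelihood test with Benjamini-Hochberg adjustment over all genes, in either direction, where 0.0334% of all genes were called lower and 0.0133% higher. At an unadjusted p of 0.05 there were 9 lower and 0 higher members (28.1% lower), against 9.57% and 9.03% of all genes. At an adjusted p of 0.1, 4 of the 32 members were lower and 0 higher, against 2.22% and 1.58% of all genes. The groups did not overlap for 5 lower members, Prdx1, Prdx4, Txn1, Gpx1 and Sod1 (15.6%, against 6.86% of all genes), and for 0 higher members (5.17% of all genes). Prdx1, Prdx4, Txn1 and Gpx1 were called lower by DESeq2 and by the edgeR exact test, and 0 members were called higher. DESeq2 called 3.55% of all genes lower and 3.31% higher, and the exact test 2.05% lower and 1.61% higher. By limma-voom 0 members were called, with 0.227% of all genes lower and 0.12% higher. In the authors' deposited table, made with edgeR, Prdx1 and Txn1 were the only 2 members with an adjusted p under 0.05, at 0.0203 and 0.0266, and 0.917% of the rows used here were lower and 1.05% higher by that rule. Without Ercc1 delta/+ replicate 2, edgeR called 3 of the 32 members lower and 0 higher, against 1.64% and 0.491% of all genes. In those libraries 12 of the 32 were lower without overlap, against 12.3% of all genes. Without wild type replicate 4, 9 of the 32 were lower without overlap, against 9.69% of all genes. Both libraries stood out on these same genes, as the highest mutant and the lowest wild type library, so leaving either out widens the separation. With any other library left out, 5 or 6 members were lower without overlap. The members, too, were picked with earlier results of these libraries known, so these counts are not independent evidence of a direction.

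**Figure D2:**
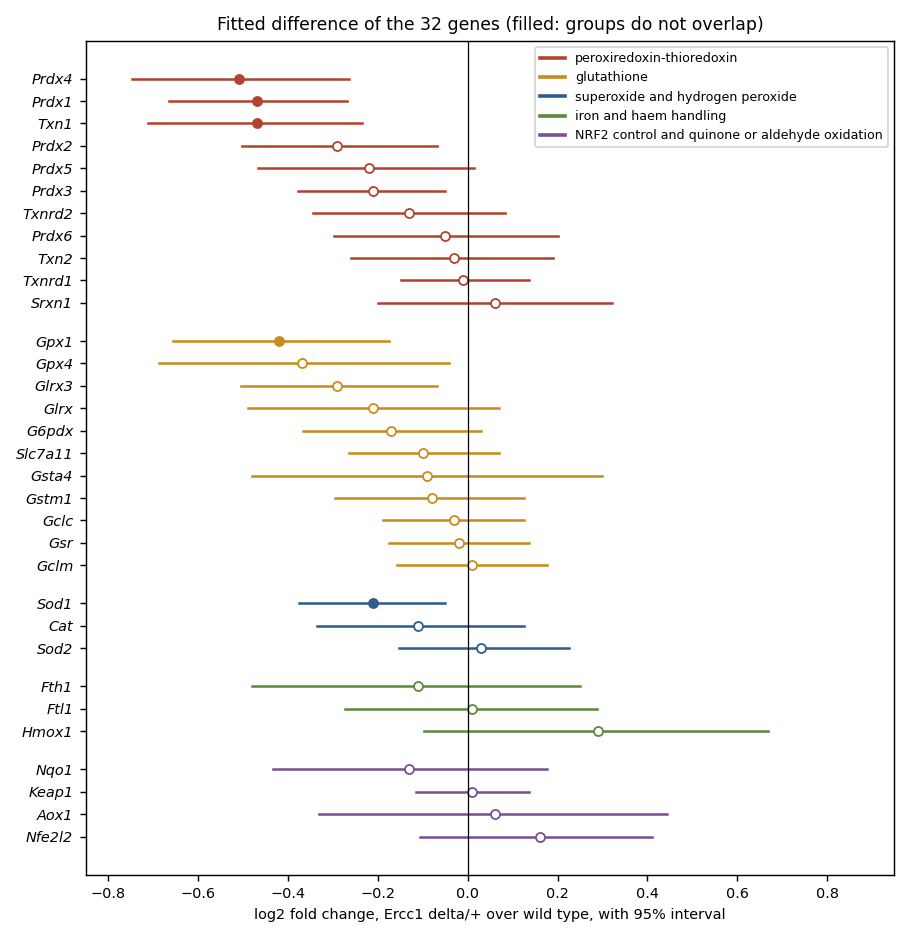
Log2 fold change of Ercc1 delta/+ over wild type (horizontal axis) with its 95% interval (bar) for the 32 genes (rows), coloured by role. Filled points mark the 5 genes whose groups do not overlap, all 5 negative.

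The log2 fold changes farthest from 0 among the 32 genes were those of Prdx4, Prdx1 and Txn1. Prdx1 (NM_011034) encodes a cytosolic peroxiredoxin. It stood at 72.0, 96.4, 86.1 and 86.2 CPM in Ercc1 delta/+ replicates 1 to 4, and at 112, 124, 117 and 118 CPM in wild type. Every mutant library lay below every wild type library, replicate 2 being the highest mutant. The fitted level was 0.724 times wild type (95% interval 0.631 to 0.830, log2 fold change -0.47, SE 0.09), with an adjusted p of 0.0612.

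Prdx4 (NM_016764), the peroxiredoxin of the endoplasmic reticulum, had the lowest fold of the 32. It stood at 11.2, 12.7, 12.9 and 10.5 CPM in Ercc1 delta/+, and at 18.7, 16.3, 14.6 and 17.6 CPM in wild type, again with no overlap. Here replicate 2 did not stand apart from the other mutant libraries. The fold was 0.704 (95% interval 0.596 to 0.833), with an adjusted p of 0.0694. Its level per transcript length was the lowest of the 6 peroxiredoxins, at 11.9 ± 1.17 CPM per kb in Ercc1 delta/+ and 17.0 ± 1.75 CPM per kb in wild type (SD, n = 4 each).

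Txn1 (NM_011660) encodes cytosolic thioredoxin, which hands electrons to the peroxiredoxins. Its values were 27.6, 38.2, 37.9 and 35.0 CPM in Ercc1 delta/+ and 51.9, 44.6, 48.9 and 47.3 CPM in wild type. The groups were separate, and Ercc1 delta/+ replicate 1 was the lowest library. The fold was 0.720 (95% interval 0.611 to 0.849), with an adjusted p of 0.0773. Txnrd1, the selenoprotein reductase that recharges this thioredoxin, gave a different picture in the same libraries. It stood at 103, 94.3, 103 and 107 CPM in Ercc1 delta/+ and at 108, 96.2, 99.7 and 104 CPM in wild type, so the groups lay on each other, and its fold of 0.996 had an interval of 0.902 to 1.10.

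The other peroxiredoxins were graded. Prdx2, a cytosolic enzyme that red blood cells also hold in quantity, stood at 120, 165, 133 and 135 CPM in Ercc1 delta/+ and at 169, 175, 171 and 158 CPM in wild type. Only Ercc1 delta/+ replicate 2 reached into the wild type range, and the fold was 0.821 (95% interval 0.706 to 0.954, adjusted p = 0.166). The summed red blood cell markers of replicates 1 to 4 were 151, 235, 176 and 200 CPM in Ercc1 delta/+ and 237, 277, 292 and 320 CPM in wild type. The mutant libraries lowest and highest in Prdx2 were also lowest and highest in these markers, while wild type replicate 4, highest in the markers, was the lowest wild type library in Prdx2. Their part in the Prdx2 value was not tested. Prdx3 of mitochondria ranged from 50.6 to 60.7 CPM in Ercc1 delta/+ and from 59.5 to 68.4 CPM in wild type (fold 0.862, 95% interval 0.769 to 0.966, adjusted p = 0.169). Prdx5, found in mitochondria, peroxisomes and cytosol, had a fold of 0.856 (interval 0.723 to 1.01). Prdx6, the 1-cysteine member that is prominent in astrocytes, had a fold of 0.965 (interval 0.813 to 1.15) and overlapped fully. All 6 peroxiredoxins were thus negative, with a median of -0.25, except that Prdx6 turned sign, at 0.00, with an offset for transcript length and base content. With that offset Prdx2 stood at -0.18, Prdx3 at -0.04 and Prdx5 at -0.15. Without it 4 of the 6 had an unadjusted p under 0.05, where 9.57% of all genes were lower by that rule.

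The remaining thioredoxin-system genes lay near the wild type level. Srxn1 stood at 145 to 162 CPM in Ercc1 delta/+ and at 114 to 170 CPM in wild type (fold 1.04, interval 0.871 to 1.25). Mitochondrial thioredoxin, Txn2, had a fold of 0.976 (interval 0.835 to 1.14), and its reductase, Txnrd2, 0.912 (interval 0.788 to 1.06). A chosen set of 5 genes with products in mitochondria, Prdx3, Prdx5, Txn2, Txnrd2 and Sod2, had a median of -0.13 on the log2 scale. All 5 overlapped between groups. The set was drawn up with earlier results known and does not hold every member whose product is partly found there. Gpx1 and Sod1, which lie outside it, had groups without overlap.

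**Figure D3:**
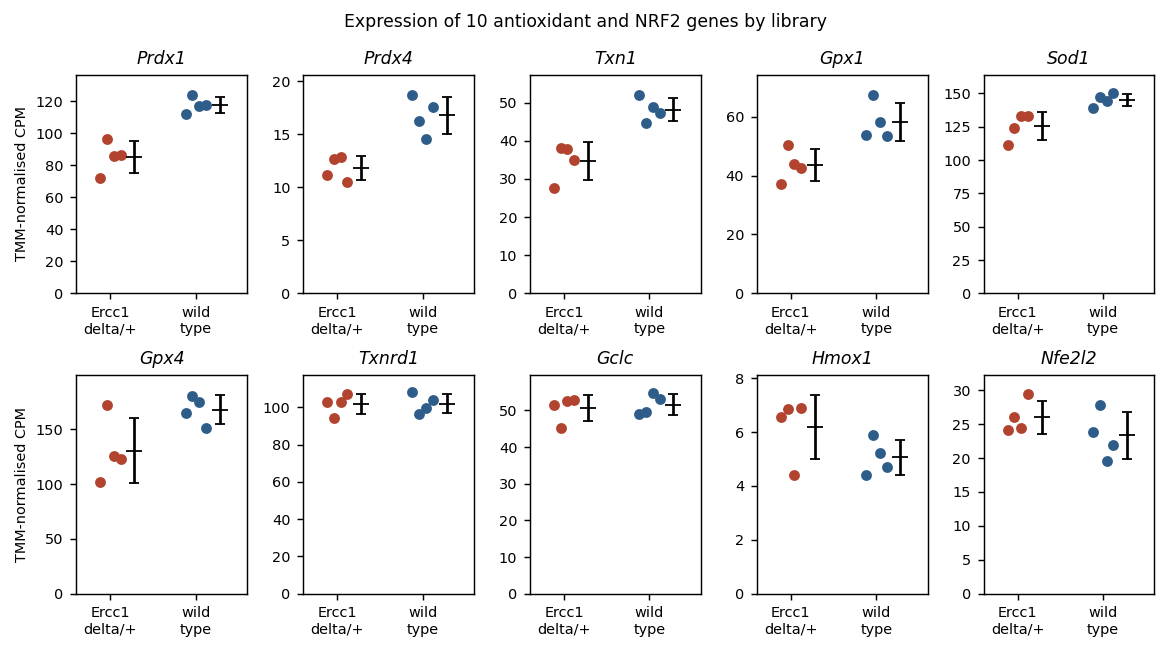
TMM-normalised CPM (vertical axis, from 0) of 10 genes in the 4 Ercc1 delta/+ libraries (left, red) and the 4 wild type libraries (right, blue), each library a point in replicate order and the bar the mean ± SD. Prdx1, Prdx4, Txn1, Gpx1 and Sod1 do not overlap between groups, while Txnrd1 and Gclc lie on the same level.

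Among the listed glutathione genes the peroxidases Gpx1 and Gpx4 differed most, and the synthesis genes Gclc and Gclm hardly at all. Gss of the wider list, which encodes glutathione synthetase, had a fold of 0.838 (95% interval 0.668 to 1.05). Gpx1 (NM_008160), the cytosolic selenium-dependent glutathione peroxidase, stood at 37.2, 50.4, 44.1 and 42.6 CPM in Ercc1 delta/+ and at 53.9, 67.3, 58.2 and 53.3 CPM in wild type. The groups did not overlap, though replicate 2 lay only a little below the lowest wild type library. Its fold was 0.750 (95% interval 0.635 to 0.886, adjusted p = 0.0957). Gpx4 (NM_008162) reduces lipid peroxides in membranes and is known for restraining ferroptosis, an iron-dependent cell death. It stood at 102, 172, 126 and 123 CPM in Ercc1 delta/+ and at 165, 181, 175 and 151 CPM in wild type. Here 3 mutant libraries were below every wild type library and replicate 2 lay inside the wild type range. Its fold of 0.776 (interval 0.621 to 0.971) had an adjusted p of 0.220. Without Ercc1 delta/+ replicate 2 the log2 fold change was -0.52 with an adjusted p of 0.0465 in edgeR. That fit called 321 genes over the whole table, against 7 with all libraries. Without Ercc1 delta/+ replicate 1 the adjusted p of Gpx4 was 0.408. Replicate 2 stood apart on these same genes, so the lower p without it is not independent evidence.

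Gclc and Gclm encode the catalytic and modifier subunits of the ligase that sets the rate of glutathione synthesis, and both are standard NRF2 targets. Gclc stood at 51.4, 45.3, 52.6 and 52.9 CPM in Ercc1 delta/+ and at 48.9, 49.6, 54.8 and 53.1 CPM in wild type, with a fold of 0.980 (interval 0.877 to 1.09). Gclm had a fold of 1.01 (interval 0.897 to 1.13). The Gclc to Gclm ratio per transcript length ranged from 2.26 to 2.98 in Ercc1 delta/+ and from 2.48 to 2.95 in wild type. Gsr, which regenerates reduced glutathione, had a fold of 0.988 (interval 0.886 to 1.10). The intervals of all 3 genes lie above the 0.724 fold of Prdx1. Of the 4 selenoprotein genes in the list, Gpx1, Gpx4, Txnrd1 and Txnrd2, all were negative, with a median of -0.25 and a range from -0.42 to -0.01 on the log2 scale, Txnrd1 turning sign at 0.00 with RLE scaling.

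Slc7a11, the cystine importer that supplies glutathione synthesis, stood at 351 to 422 CPM in Ercc1 delta/+ and at 381 to 416 CPM in wild type (fold 0.934, interval 0.833 to 1.05). G6pdx, which makes NADPH in the pentose phosphate pathway, had a fold of 0.888 (interval 0.776 to 1.02). The glutaredoxin Glrx3, known for iron-sulfur cluster handling, stood at 41.4 to 54.8 CPM in Ercc1 delta/+ and at 50.4 to 61.2 CPM in wild type (fold 0.819, interval 0.705 to 0.953, adjusted p = 0.165). The disulfide-reducing glutaredoxin Glrx had a fold of 0.863 (interval 0.712 to 1.05). Both glutathione transferases overlapped, Gstm1 with a fold of 0.943 (interval 0.815 to 1.09) and Gsta4, which detoxifies lipid aldehydes, with 0.940 (interval 0.717 to 1.23). Gsta4 spread most among the 32 within a group, at 26.2, 50.8, 32.1 and 33.0 CPM in Ercc1 delta/+ against 36.2 to 39.1 CPM in wild type, and replicate 2 was again the high mutant library.

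Among the enzymes of superoxide and hydrogen peroxide, cytosolic Sod1 (NM_011434) stood at 111, 124, 133 and 133 CPM in Ercc1 delta/+ and at 139, 147, 144 and 150 CPM in wild type. The groups were separate by a narrow margin, with a fold of 0.863 (95% interval 0.771 to 0.966, adjusted p = 0.170). The mitochondrial Sod2 stood at 157 to 170 CPM in Ercc1 delta/+ and at 134 to 173 CPM in wild type, with a fold of 1.02 (interval 0.899 to 1.17). Catalase, Cat, which breaks down hydrogen peroxide in peroxisomes, was at 54.3, 72.1, 54.8 and 54.9 CPM in Ercc1 delta/+ and at 62.0, 66.3, 67.4 and 58.7 CPM in wild type. In 3 mutant libraries it lay within a narrow band under the wild type range, and replicate 2 was the highest of all 8 libraries. Its fold was 0.927 (interval 0.792 to 1.09).

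Iron and haem genes gave no common direction. The ferritin heavy chain gene Fth1, whose product oxidises and stores iron, was by far the most abundant member per transcript length, at 1380 ± 263 CPM per kb in Ercc1 delta/+ and 1490 ± 280 CPM per kb in wild type (SD, n = 4 each). Its fold was 0.924 (interval 0.717 to 1.19). The light chain gene Ftl1 had a fold of 1.00 (interval 0.828 to 1.22). The Fth1 to Ftl1 ratio per transcript length ranged from 5.50 to 7.27 in Ercc1 delta/+ and from 5.89 to 8.77 in wild type, so the balance of the chains overlapped. Hmox1, the inducible haem oxygenase, had the highest fold of the 32, though with depth class as a term its log2 fold change was 0.04, against 0.29 without, and lay below that of Aox1, at 0.10. It stood at 6.55, 6.86, 4.42 and 6.91 CPM in Ercc1 delta/+ and at 4.40, 5.90, 5.24 and 4.70 CPM in wild type. 3 mutant libraries were above every wild type library and replicate 3 was beside the lowest, and the fold of 1.22 (interval 0.935 to 1.59) had an adjusted p of 0.396.

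The regulators and the oxidoreductases of quinones and aldehydes also overlapped. Nfe2l2 stood at 24.2, 26.0, 24.4 and 29.4 CPM in Ercc1 delta/+ and at 23.9, 27.9, 19.6 and 22.0 CPM in wild type (fold 1.11, interval 0.929 to 1.33). Keap1 had the narrowest interval of the set, 0.923 to 1.10 around a fold of 1.01. Nqo1, the quinone reductase often used as a readout of NRF2, was scarce at 5.30 ± 0.296 CPM in Ercc1 delta/+ and 5.79 ± 0.896 CPM in wild type (n = 4 each, ± SD), a fold of 0.913 (interval 0.740 to 1.13). Aox1, an aldehyde oxidase, had a fold of 1.04 (interval 0.795 to 1.36). Of 7 members known as inducible NRF2 targets, Nqo1, Hmox1, Gclc, Gclm, Txnrd1, Srxn1 and Slc7a11, 3 were positive and 4 negative, with a median of -0.01. The signs of Nqo1, Gclc, Gclm, Txnrd1 and Srxn1 turned under at least 1 alternative. In edgeR 0 of the 7 had an unadjusted p under 0.05. These 7 were chosen with earlier results known and are not all the NRF2 targets of the list. Their median therefore does not speak for NRF2 targets as a class.

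Ordered by level per transcript length in wild type, Fth1, Sod1, Ftl1, Gpx4 and Gstm1 were the 5 most abundant members and Aox1, Hmox1, Nqo1, Gclm and Txnrd2 the 5 scarcest. Sod1 stood at 195 ± 16.4 CPM per kb in Ercc1 delta/+ and 226 ± 7.66 CPM per kb in wild type, and Ftl1 at 219 ± 17.3 and 218 ± 40.9 CPM per kb in the same groups (SD, n = 4 each), so this pair did not differ beyond its spread. Of the 31 steps between neighbours in the wild type order, 13 were smaller than the SD of 1 of the neighbours. In Ercc1 delta/+ libraries Prdx1 ranked 15 and Txn1 17, against 12 and 13 in wild type. Lengths are those of the longest matched transcripts in a later annotation than the one counted, so levels per length are approximate.

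The differences moved with transcript length, as those of all genes did. The Spearman coefficient between log2 fold change and length was 0.550 over the 32 genes and 0.395 over 14700 genes, given as a description across genes that share the same libraries. Of the 6 members up to 1000 bases long, 5 were negative with a median of -0.16, against -0.24 for all genes of that length. The 12 members over 1000 and up to 2000 bases had a median of -0.21, against -0.10 for all such genes, and 11 were negative. For the 10 members up to 4000 bases the median was -0.02, against -0.01, and for the 4 longer ones 0.02, against 0.09. Prdx1, whose longest matched transcript has 2294 bases, was the exception among the longer members at -0.47. Its place here rests on that length, which may not be that of the transcript counted.

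**Figure D4:**
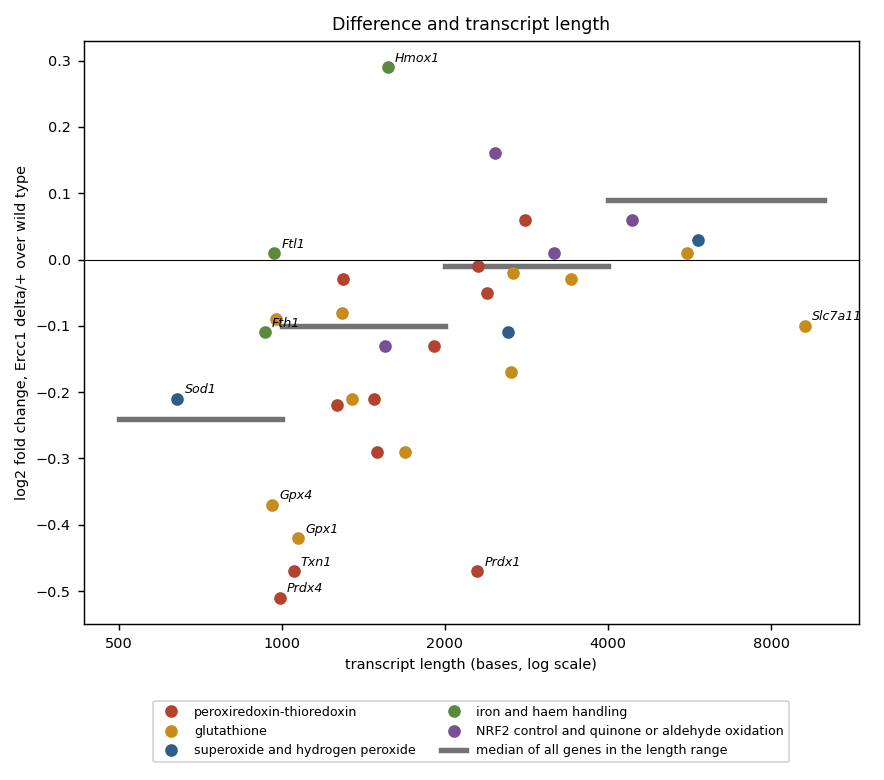
Log2 fold change of Ercc1 delta/+ over wild type (vertical axis) against transcript length in bases (horizontal axis, log scale) for the 32 genes, with grey bars for the median of all genes up to 1000, 2000 and 4000 bases and longer. Most genes below -0.3 are about 1000 bases long, and Prdx1 at 2294 bases is the exception.

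With an offset per library for the trend over length and GC content, the median of the 32 genes was -0.01, against 0.003 for all genes, and 17 were negative. The groups then did not overlap for 2 members, Prdx1 and Gpx1, where 3.53% of all genes were lower without overlap, and 0 members passed an adjusted p of 0.05, against 0.00667% of all genes called lower. Prdx1 stood at -0.33 (adjusted p = 0.256, edgeR), Prdx4 at -0.31, Gpx1 at -0.30, Txn1 at -0.26 and Gpx4 at -0.25 with the offset, while Sod1 and Fth1, negative without it, stood at 0.06 and 0.07. How much of the length trend belongs to the libraries and how much to the tissue cannot be told apart here.

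**Figure D5:**
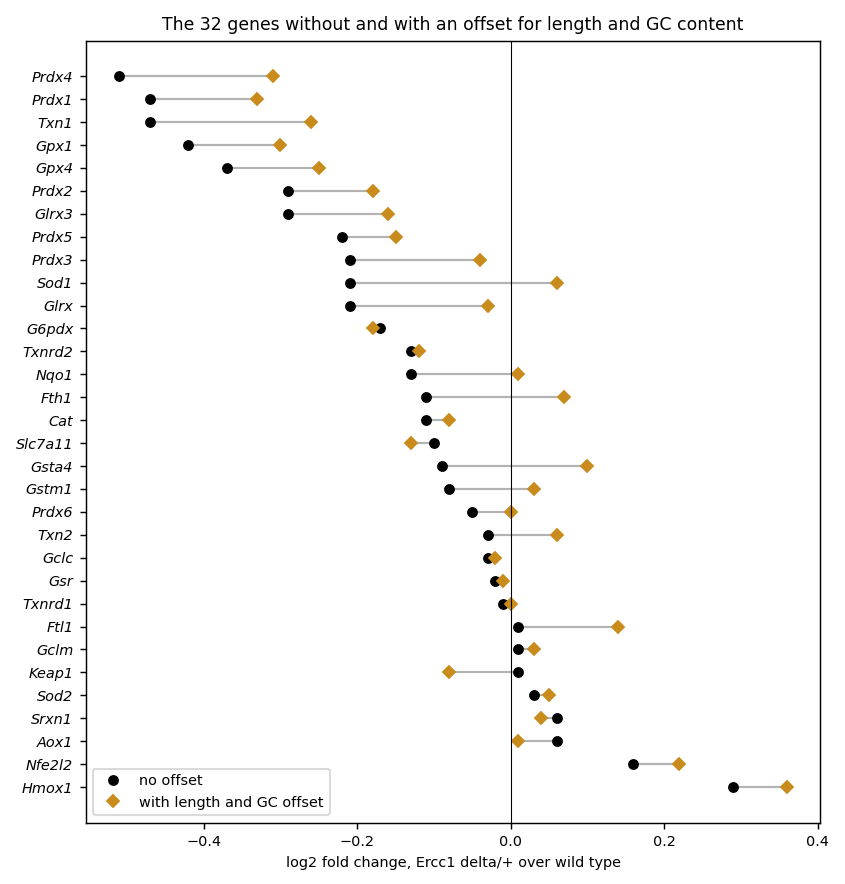
Log2 fold change of Ercc1 delta/+ over wild type (horizontal axis) of the 32 genes (rows) without (black circles) and with (orange diamonds) a library-wise correction for length and GC. Prdx4, Prdx1, Gpx1, Txn1 and Gpx4 lie between -0.33 and -0.25 with it, and Sod1 crosses 0.

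The wider pathway was read from a list of 86 other genes, of which 83 were tested. None passed the adjusted p in the quasi-likelihood test, 13 were lower (15.7%) and 6 higher at an unadjusted p of 0.05, against 9.57% and 9.03% of all genes, and the median was -0.05. DESeq2 called Mgst1, Gstm5 and Rbx1 lower and Abcc4 higher, the exact test called Mgst1 lower and Abcc4 higher, and limma-voom called 0. Over all genes DESeq2 called 3.55% lower and 3.31% higher, and the exact test 2.05% lower and 1.61% higher, shares that the calls among the 83 genes do not clearly exceed. Groups did not overlap for 9 lower (10.8%) and 5 higher genes, against 6.86% and 5.17% of all genes. In the other glutathione genes 17 of 24 were negative (70.8%, against 50.5% of all genes), with a median of -0.18. Their median length was 1240 bases, and all genes over 1000 and up to 2000 bases had a median of -0.10. The part of length in this tilt was not tested. Mgst1, a membrane-bound glutathione transferase, stood at 8.97, 11.8, 10.4 and 10.3 CPM in Ercc1 delta/+ and at 14.8, 17.3, 12.9 and 15.0 CPM in wild type, with no overlap and a fold of 0.692 (interval 0.576 to 0.832, adjusted p = 0.0773). Gstm5, of the same mu class as Gstm1, also had no overlap, at 78.6 to 97.8 CPM in Ercc1 delta/+ and 104 to 118 CPM in wild type (fold 0.813, adjusted p = 0.101).

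Of 15 tested genes for NADPH supply and detoxification, 7 were positive and 8 negative. Idh1, the cytosolic NADPH-forming isocitrate dehydrogenase, had a fold of 0.846 (adjusted p = 0.129). Abcc4, an exporter of conjugates and nucleotides, had the smallest p on the higher side of the wider list, at 17.2 to 21.3 CPM in Ercc1 delta/+ and 12.4 to 14.9 CPM in wild type (fold 1.46, interval 1.24 to 1.71, adjusted p = 0.0602). In the authors' deposited table the adjusted p of Abcc4 was 0.0384. Among 13 partners of NRF2 and parts of its degradation, 9 were positive. The repressor gene Bach2 had a fold of 1.27 (adjusted p = 0.146), the small Maf gene Maff 1.69 (adjusted p = 0.210), and the ubiquitin ligase RING gene Rbx1 0.856 (adjusted p = 0.124). Extracellular superoxide dismutase, Sod3, had a log2 fold change of 0.38 (adjusted p = 0.165). The stress-induced sestrin gene Sesn2 had a fold of 1.19 (adjusted p = 0.175) and the thioredoxin-like gene Txndc17 0.782 (adjusted p = 0.143). Of the 5 genes named on the higher side, Abcc4, Bach2, Sod3 and Sesn2 had groups without overlap and Maff did not. The summed choroid plexus markers of Ercc1 delta/+ replicates 1 to 4 were 361, 478, 1140 and 75.1 CPM, and Abcc4 stood at 21.0, 18.3, 17.2 and 21.3 CPM in the same libraries. The part of choroid plexus RNA in the Abcc4 value was not tested.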

How the data were processed

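Poly(A) RNA was sequenced from 4 Ercc1 delta/+ and 4 wild type samples. Per the labels' protocols, TruSeq libraries from RNA above a quality limit were pooled in 1 lane. The submitters' processing notes name TopHat 1.3.1, edgeR and mm9. How reads were counted, and how strand and reads that fit several places were treated, is not given in the sources used here. Genes with near-identical copies or pseudogenes (Fth1, Ftl1, Gpx4, Prdx1, Prdx6, Txn1, Sod1 and the Gstm genes) are uncertain. The authors deposited raw counts for 19931 transcript rows, with their own log2 fold changes, p-values and adjusted p-values per row, per the file headers; rows of low count are absent (lowest total 31).

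Rows were matched to symbols through RefSeq (GRCm38.p6) and GENCODE M21 tables (19600 matched), the row of highest total was kept per gene, and genes with identical counts were merged, leaving 15274 genes. Groups were compared with edgeR's quasi-likelihood F test (edgeR 4.0.16, R 4.3.3) after TMM scaling and filterByExpr (14989 genes), Benjamini-Hochberg adjustment and a two-sided threshold of 0.05. Standard errors are the estimate over the root of F. Transcript length and GC content came from GENCODE M21, from the longest transcript matched to each RefSeq row. Alternatives were other scalings, filters and tools (DESeq2 1.42.0, limma 3.58.1), robust dispersion, a replicate block, a depth term, every transcript row, a length and GC offset (lowess, span 0.3) and leaving out each library. The pipeline was tested on simulated data.

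All 32 members are named, besides Ercc1. Of the 86 other pathway genes, Gss and the 5 with the smallest p per direction and a mean of at least 1 CPM are named. The members, lists and subgroups were chosen with earlier results of these data known. Intervals cover the spread between libraries. Replicates of a group differed beyond sampling noise (lowest chi-square per degree of freedom 11.9).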

Additional observations from a re-analysis of the deposited data

Results flagged for a closer look

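In 64 groups of 4 libraries (32 genes in 2 genotypes), 2 held a library far from the other 3 by Dixon's test at the 95% level, which chance gives in about 1 in 20 groups. Cat was at 72.1 CPM in Ercc1 delta/+ replicate 2, far above the other 3 mutant libraries. Hmox1 was at 4.42 CPM in Ercc1 delta/+ replicate 3, far below the other 3.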

How the results depend on the processing

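Counting genes past the threshold gave 7 over the whole table, and it was 33 with RLE scaling, 86 with upper-quartile scaling, 50 with the stricter filter, 548 with the edgeR exact test, 1028 with DESeq2, 52 with limma-voom, 4 with every transcript row, 1 with the depth group term, 1 with the length and GC offset, and between 0 and 321 when a library was left out. Correlations of same-numbered libraries were -0.275, 0.168, -0.122 and 0.262, which does not settle whether replicate numbers pair the samples. With the replicate block 0 genes passed. The standard error with the block was 0.0639 for Gpx1, against 0.107 without it, and 0.125 for Prdx4, against 0.108. Of the 32 members 4 were called lower with DESeq2 and with the exact test, with adjusted p-values for Prdx1 of 0.000291 and 0.00229, and Ercc1 was called with DESeq2 (-0.33, adjusted p = 0.0389). Leaving out a library gave between 0 and 3 lower calls, the 3 being Prdx1, Prdx2 and Gpx4 without Ercc1 delta/+ replicate 2, where 1.64% of all genes were called lower. Members lower without overlap then numbered between 5 and 12 of the 32. They were 12 of 32 without Ercc1 delta/+ replicate 2, against 12.3% of all genes, and 9 of 32 without wild type replicate 4, against 9.69%. Both libraries stood out on these same genes, and leaving out any other gave 5 or 6. Members higher without overlap numbered between 0 and 1, being Hmox1 without Ercc1 delta/+ replicate 3 and Nfe2l2 without wild type replicate 2. With the length and GC offset the median of the members was -0.01 and 2 were lower without overlap. The other scalings, filters and the transcript rows kept the same 5 genes lower without overlap, with Prdx3 added by upper-quartile scaling.

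Across all alternatives Prdx1 ranged from -0.53 to -0.33, Prdx4 from -0.57 to -0.31, Txn1 from -0.52 to -0.26 and Gpx1 from -0.49 to -0.30, and the adjusted p of Prdx1 from 0.000291 to 0.256. With the depth term Prdx1 stood at -0.49, Prdx4 at -0.45, Txn1 at -0.40 and Gpx1 at -0.48, and Hmox1 at 0.04 (adjusted p = 0.924). These values changed sign. With RLE scaling and with DESeq2 Txnrd1 was 0.00. With upper-quartile scaling Keap1 was -0.01, Gclm -0.01 and Ftl1 -0.02. With the depth term Keap1 was -0.03, Gclc 0.01, Gclm -0.04, Ftl1 -0.14, Srxn1 -0.02, Txnrd1 0.03 and Sod2 -0.02. With the length and GC offset Keap1 was -0.08, Nqo1 0.01, Gsta4 0.10, Gstm1 0.03, Fth1 0.07, Prdx6 0.00, Txn2 0.06, Txnrd1 0.00 and Sod1 0.06. When a library was left out, Aox1 lay between -0.05 and 0.19, Ftl1 -0.06 and 0.14, Gclc -0.05 and 0.02, Gclm -0.03 and 0.05, Gsr -0.04 and 0.02, Gsta4 -0.31 and 0.03, Keap1 -0.01 and 0.04, Prdx6 -0.12 and 0.05, Sod2 -0.04 and 0.08, Srxn1 -0.04 and 0.13, Txn2 -0.11 and 0.03, and Txnrd1 -0.03 and 0.03. The cause was not tested. Gsta4, Hmox1 and Aox1 had the largest standard errors (0.17 each on the log2 scale), and a count of 0 would allow up to 3 counts, or 0.0962 to 0.164 CPM.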

Other observations

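Of the other iron and haem genes, 10 were tested, of which 8 were negative and 2 positive, with a median log2 fold change of -0.07, a range from -0.41 to 0.41 and 1 lower gene at an unadjusted p of 0.05. Among 16 further thioredoxin-system genes 9 were negative and 7 positive (median -0.10), with 1 gene higher and 1 lower without overlap. Of 5 further superoxide genes 3 were positive and 2 negative. At an unadjusted p of 0.05 the thioredoxin-system list held 2 lower and 2 higher genes, the superoxide list 0 lower and 1 higher, and the iron list 0 higher, where 9.57% of all genes were lower and 9.03% higher. Over these 3 lists the quasi-likelihood test, the exact test, DESeq2 and limma-voom each called 0 genes at an adjusted p of 0.05.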
